A study of Drosophila melanogaster with 3 samples.

Results

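The strong CG2120-GFP peaks are the 473 of 8340 optimal peaks (build dm6) whose deposited signal value is 1000 or more. The signal value is a number that the authors' peak calling gave each peak, on a scale that the labels and files do not name, and so the members were chosen by a measured value, and the signal values and replicate ranks below describe that choice. The other 7867 optimal peaks, with signal values under 1000, are called weaker peaks. Chromatin immunoprecipitation with sequencing (ChIP-seq) was done on whole embryos of Drosophila melanogaster 18 to 24 h old. All samples come from a transgenic line that stably expresses CG2120 with GFP fused to its C-terminal end, and an antibody against GFP was used for the precipitation. There is 1 group of 3 biological replicates and 1 control library for all lists, with no second genotype or stage, so the comparisons are between strong and weaker peaks. The replicate lists hold 30000, 30000 and 27353 peaks, and hold no numbers of reads, so each sample's depth is unknown. Whole embryos mix all tissues, so no peak is assigned to a cell type. Intervals on shares cover counting error only.

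CG2120 encodes a protein with C2H2 zinc fingers, a fold with which many transcription factors and chromatin proteins of flies contact DNA. The position of highest read density within a ChIP-seq peak, its summit, marks where the tagged protein, or something that holds it on chromatin, was crosslinked most often. Many fly promoters carry an A/T-rich stretch that is free of nucleosomes just upstream of the transcription start site (TSS), and core promoter motifs sort them into broadly active and regulated classes.

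On average the strong peaks were centred on a narrow block of A/T-rich sequence. Many of them had short words near its edges that face inward. The 8 members shown first are among the strongest on arms 2L, 3L, 3R and X whose printed window overlaps no annotated exon. In 6 of them such a word lies 30 to 130 bp from the summit. The intergenic peak of rank 8 on X, not shown, holds no such word there. Of all strong peaks 46.7% hold one at that distance, and of the 40 strongest 65%, so the printed windows hold them more often. Each printed sequence is the plus strand of the RefSeq release 6 assembly, 135 bases to each side of the summit. Capitals mark the word ACAGTG, the word CAGTGG, the word AGGGG or the word GCGTAG where it lies 30 to 130 bp from the summit and reads toward it, which on the right of the summit means its reverse complement.
cbt (chr2L:480946-481216): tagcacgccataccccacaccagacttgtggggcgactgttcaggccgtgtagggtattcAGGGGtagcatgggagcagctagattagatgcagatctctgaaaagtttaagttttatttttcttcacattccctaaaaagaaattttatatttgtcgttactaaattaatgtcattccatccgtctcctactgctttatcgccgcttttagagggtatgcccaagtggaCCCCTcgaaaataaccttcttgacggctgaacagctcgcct
Lk6 (chr3R:11760913-11761183): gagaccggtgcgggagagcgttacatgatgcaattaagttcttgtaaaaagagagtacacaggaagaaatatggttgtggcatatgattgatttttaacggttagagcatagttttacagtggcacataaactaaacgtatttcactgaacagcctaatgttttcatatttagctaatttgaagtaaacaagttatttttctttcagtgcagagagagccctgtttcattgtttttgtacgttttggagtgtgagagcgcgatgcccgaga
CG9663 (chr2L:3302050-3302320): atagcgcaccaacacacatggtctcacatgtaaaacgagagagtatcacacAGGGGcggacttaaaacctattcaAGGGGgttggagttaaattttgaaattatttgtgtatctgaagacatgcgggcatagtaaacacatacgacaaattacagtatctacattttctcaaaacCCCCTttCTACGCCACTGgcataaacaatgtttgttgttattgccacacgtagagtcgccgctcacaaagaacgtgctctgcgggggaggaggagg
larp (chr3R:28326454-28326724): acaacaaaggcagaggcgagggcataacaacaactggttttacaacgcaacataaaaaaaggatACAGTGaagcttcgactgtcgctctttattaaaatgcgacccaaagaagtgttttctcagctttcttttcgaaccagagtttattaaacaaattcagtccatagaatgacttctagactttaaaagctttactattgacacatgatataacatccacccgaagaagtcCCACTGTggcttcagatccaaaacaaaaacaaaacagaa
CG32772 (chrX:4910243-4910513): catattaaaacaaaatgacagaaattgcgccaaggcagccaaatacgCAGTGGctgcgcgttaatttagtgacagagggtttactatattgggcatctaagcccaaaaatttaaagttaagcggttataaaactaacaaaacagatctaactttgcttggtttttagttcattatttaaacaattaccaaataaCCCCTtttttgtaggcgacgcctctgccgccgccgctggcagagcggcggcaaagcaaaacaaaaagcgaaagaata
ph-p (chrX:2137201-2137471): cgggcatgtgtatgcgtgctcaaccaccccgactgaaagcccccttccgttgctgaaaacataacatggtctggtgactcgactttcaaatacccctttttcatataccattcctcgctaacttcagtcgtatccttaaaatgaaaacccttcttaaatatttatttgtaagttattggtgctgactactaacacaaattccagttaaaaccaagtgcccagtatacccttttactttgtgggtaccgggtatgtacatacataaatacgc
Atf3 (chrX:1275364-1275634): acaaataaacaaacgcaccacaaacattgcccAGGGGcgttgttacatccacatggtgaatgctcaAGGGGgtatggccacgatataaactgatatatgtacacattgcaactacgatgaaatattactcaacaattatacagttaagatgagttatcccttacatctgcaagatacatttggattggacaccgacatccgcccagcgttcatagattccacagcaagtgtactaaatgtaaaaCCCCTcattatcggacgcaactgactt
Trl (chr3L:14759368-14759638): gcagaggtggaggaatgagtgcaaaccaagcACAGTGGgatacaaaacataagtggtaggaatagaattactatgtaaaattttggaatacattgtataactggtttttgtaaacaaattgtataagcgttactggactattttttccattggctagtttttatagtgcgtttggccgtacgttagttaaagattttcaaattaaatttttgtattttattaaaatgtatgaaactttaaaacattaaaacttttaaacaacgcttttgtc

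The first of these, rank 1 of the optimal list with a signal value of 9422, carries an inward word on each side of its A/T-rich middle, and so do those near CG9663, larp, CG32772 and Atf3. The window near Trl has its 2 marked words, which overlap, on the left alone. That near Lk6, with a signal value of 4981, holds acagtgg reading toward the summit but nearer to it than 30 bp, so it is unmarked. That near ph-p, with 3994, holds none of the words in the inward direction. For contrast, the 2 strongest weaker promoter peaks that meet the same rule and hold the DNA replication-related element (TATCGATA, capitals) are these, with signal values of 294.8 and 217.3.
Ptp61F (chr3L:1350659-1350929): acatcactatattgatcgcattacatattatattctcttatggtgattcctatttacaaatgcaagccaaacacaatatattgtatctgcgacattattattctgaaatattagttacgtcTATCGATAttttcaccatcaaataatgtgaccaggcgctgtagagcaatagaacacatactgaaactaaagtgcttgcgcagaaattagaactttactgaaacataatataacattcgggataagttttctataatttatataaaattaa
CG4452 (chr3L:9367103-9367373): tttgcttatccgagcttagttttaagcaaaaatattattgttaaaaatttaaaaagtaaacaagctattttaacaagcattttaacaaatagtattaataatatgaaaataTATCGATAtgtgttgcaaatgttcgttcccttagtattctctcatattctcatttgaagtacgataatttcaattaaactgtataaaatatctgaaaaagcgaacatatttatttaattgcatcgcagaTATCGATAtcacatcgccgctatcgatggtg

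Over all members, 221 of 473 strong peaks (46.7%, exact 95% interval 42.2 to 51.3) had at least 1 of the 4 words facing the summit, against 1963 weaker peaks (24.95%, interval 24.0 to 25.9). The share over all optimal peaks was 26.2%. Strong peaks had a word facing the summit on both sides in 67 cases (14.2%), weaker peaks in 287 (3.65%), and all optimal peaks in 4.24%. The same words facing away from the summit were found in 80 strong peaks (16.9%) and in 16.1% of weaker peaks, beside 16.2% of all optimal peaks. Away-facing words on both sides were found in 5 strong peaks (1.06%) and 0.801% of weaker peaks, and in 0.815% of all optimal peaks. The excess in strong peaks was seen for the inward orientation, in which the words had been picked.

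The replicates' own lists gave shares close to these, as their make-up largely fixes, since each replicate's 473 strongest peaks hold 432 to 452 of the strong peaks. The same holds for all replicate values below, whose SD covers the remaining spread. The 473 strongest peaks of a replicate had an inward word in 45.6% ± 0.880 and its next peaks, down to rank 8340, in 24.5% ± 0.0834 (SD, n = 3 replicates), with a difference of 21.1 ± 0.875 points. For words facing away the shares were 17.0% ± 0.854 in the strongest peaks and 16.7% ± 0.321 in the next ones (SD, n = 3). The words were picked, as read toward the summit, after the sequences had been read. An excess of that orientation can follow from this choice. These shares, and those by signal value below, are therefore descriptions and were given no test.

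Of the single words, ACAGTG faced the summit in 24.7% of strong and 12.4% of weaker peaks, beside 13.1% of all optimal peaks. CAGTGG did so in 21.6% of strong and 8.90% of weaker peaks, and in 9.62% of all, and the pair overlap, since many sites read ACAGTGG. The word AGGGG was found facing inward in 19.5% of strong and 10.1% of weaker peaks, and in 10.7% of all. GCGTAG was the rarest, in 8.67% of strong and 1.97% of weaker peaks, and in 2.35% of all. Facing away, ACAGTG was found in 7.40% of strong and 5.83% of weaker peaks (5.92% of all), and AGGGG in 7.61% of strong and 6.91% of weaker peaks (6.95% of all). The word CAGTGG faced away in 3.81% of both strong and weaker peaks, and GCGTAG in 1.69% of strong and 1.77% of weaker peaks (1.76% of all).

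The inward words were most frequent 60 to 100 bp from the summit. Per 20 bp, the share of strong peaks with one was 3.59% next to the summit, 17.5% at 60 to 80 bp, 16.5% at 80 to 100 bp and 6.98% at 120 to 140 bp. In weaker peaks it stayed between 4.16% at the summit and 6.46% at 80 to 100 bp over the same distances. Where both sides held a word, the distance between the centres of the innermost left and right words was measured. Its median was 166 bp in 67 strong peaks (quartiles 133.5 to 178.3 bp, range 88 to 235 bp). In 287 weaker peaks it was 157.5 bp (quartiles 142 to 177.5 bp, range 64 to 251 bp). Words were counted only in the set range of distances on each side of the summit, and this choice bounds the spacing in both groups. Whether paired words keep a fixed distance from each other was therefore not tested.

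**Figure D1:**
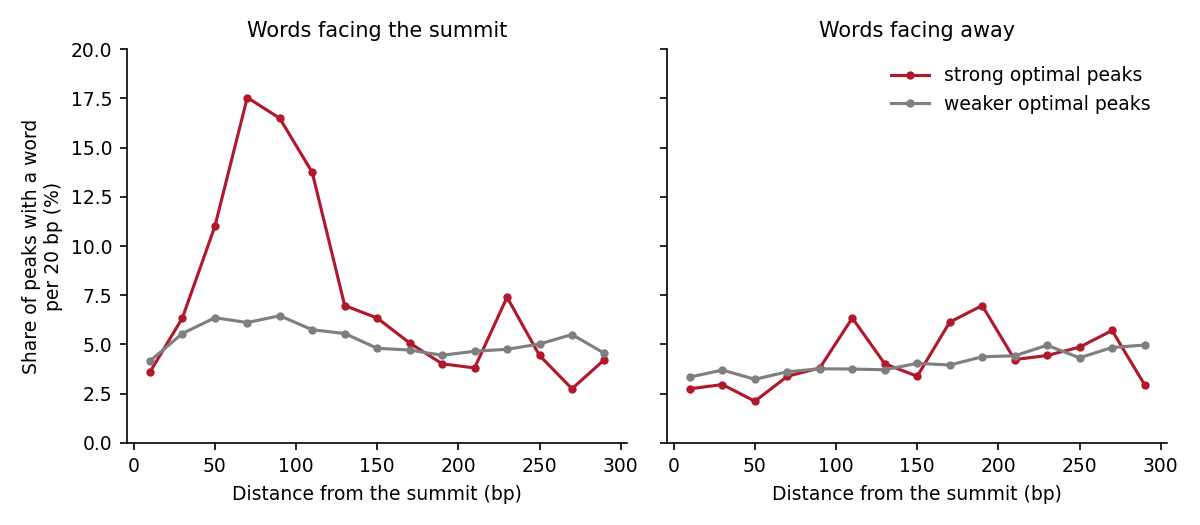
Share of peaks (%) with at least 1 of the 4 edge words per 20 bp of distance from the summit (bp, left and right sides summed), for 473 strong (red) and 7867 weaker (grey) optimal peaks. Left, words that read toward the summit, with a maximum of 17.5% at 60 to 80 bp in strong peaks; right, words that read away from it.

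The share also differed within the strong peaks. Of the 110 with a signal value of 2000 or more, 62.7% had an inward word and 29.1% had one on both sides, while of the 177 under 1250 these shares were 41.2% and 9.60%. Among weaker peaks it was 27.7% at signal values of 500 to 1000 and 24.0% under 200. Strong peaks outside promoters had an inward word in 54.5% of cases and strong promoter peaks in 43.3%, against 28.5% and 21.1% for weaker peaks in those places. Of the 40 strongest peaks, 26 had an inward word and 15 had one on both sides, among them the peaks near CG8320, eIF6, Pal1, MFS10, amon and Adf1.

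Between these edges lay the A/T-rich block. Within 50 bp of the summit the mean GC content was 31.5% in strong peaks and 35.5% in weaker peaks, beside 35.3% in all optimal peaks. Of the strong windows 89.0% and of the weaker ones 71.0% were under 40% GC. Single windows overlapped widely, from 17.8% to 66.3% in strong (SD 7.19 over peaks) and 8.91% to 71.3% in weaker peaks (SD 8.98). In the replicates the strongest peaks had means of 32.2%, 30.9% and 31.3% GC and the next ones 36.3%, 35.6% and 35.6%, so these means did not overlap. The difference of the replicates was -4.33 ± 0.278 points (SD, n = 3), and an exact sign-flip permutation test over the 3 replicates, two-sided, gave p = 0.25, the smallest it can give with 3 samples (0.286 adjusted by Benjamini and Hochberg over 8 measures). With 3 replicates this exact test cannot reach a p of 0.05. The difference was larger among promoter peaks (31.2% in strong and 37.3% in weaker) than outside promoters (32.0% in strong and 33.8% in weaker), and in windows of 100 bp to each side it was -1.49 points.

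The block was also narrower in strong peaks. In 20 bp bins the GC content was lowest at 29.8% in strong and 35.2% in weaker peaks, and it lay below the halfway point between this minimum and the level beyond 300 bp over 140 bp in strong and 240 bp in weaker peaks. In the replicates the width was 133 ± 11.5 bp for the strongest peaks and 240 ± 20 bp for the next ones (SD, n = 3). At 100 to 140 bp from the summit strong peaks had 43.8% GC, about their level far from it, and weaker peaks had 39.2%. These are means over peaks, so the width of the block in single peaks is not given by them.

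**Figure D2:**
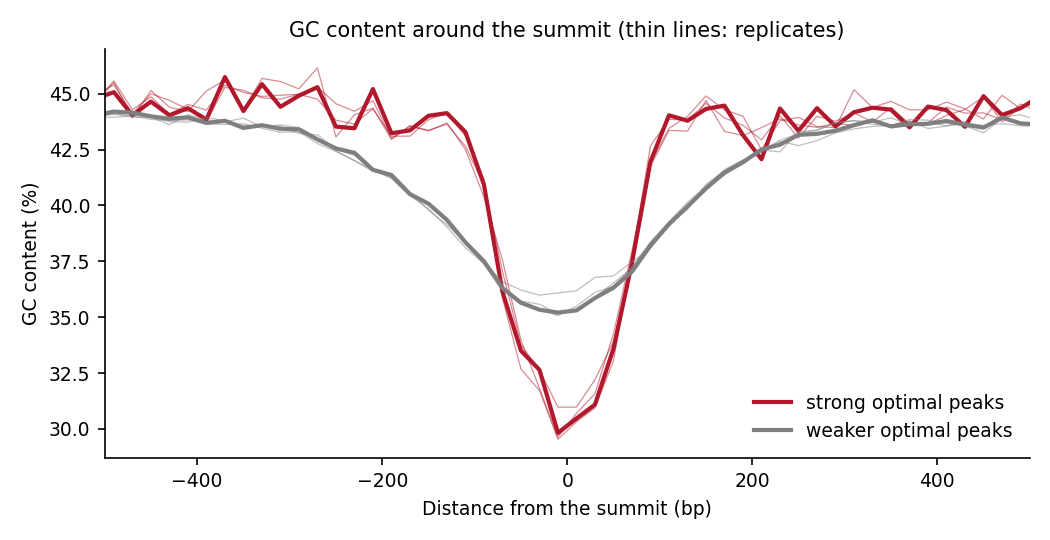
GC content (%) in 20 bp bins by distance from the summit (bp) for strong (red) and weaker (grey) optimal peaks, with each replicate's own strongest 473 and next peaks as thin lines of the same colour. The strong peaks reach 29.8% in a block 140 bp wide and the weaker ones 35.2% in a block 240 bp wide.

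The block was rich in runs of A and T, such as TTAA, AATT and ATTA. TTAA occurred within 50 bp of the summit in 368 strong peaks (77.8%) and in 63.6% of weaker peaks, beside 64.4% of all optimal peaks, and in 38.5% of windows of the same length centred 500 bp to the right of strong summits. AATT was in 80.3% of strong and 67.4% of weaker windows (68.1% of all), and ATTA in 87.3% of strong and 74.1% of weaker ones (74.9% of all). Of the 10 8-mers with the largest difference, 8 contained TTAA and 9 consisted of A and T alone. AAATAATT led, in 9.73% of strong and 3.67% of weaker windows (4.02% of all), and was found in 2.11% of the windows shifted by 500 bp. TATTTTAA followed with 8.67% in strong and 4.08% in weaker windows (4.34% of all), then AATAATTA with 6.55% in strong and 2.28% in weaker ones (2.52% of all). GAATTTAA, with a G at its end, was found in 5.71% of strong and 1.56% of weaker windows (1.80% of all). Each 8-mer was counted with its reverse complement, and the 8-mers overlap one another. Windows at strong summits held more A and T as a whole, and the part of this in these shares was not tested.

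Of 40 known motifs searched on both strands in the same 101 bases, 8 differed by 2 points or more and in the same direction in all 3 replicates. The homeodomain core TAATTA, the site of many developmental factors, was found in 60 strong peaks (12.7%) and in 8.36% of weaker ones, beside 8.61% of all optimal peaks. TATAAA, the letters of the TATA box, was in 113 strong peaks (23.9%) and 19.6% of weaker ones, and in 19.9% of all. CCAAT was in 100 strong peaks (21.1%) and 17.6% of weaker ones, and in 17.8% of all, and TGCATA, the core of the Su(Hw) insulator motif, in 51 strong peaks (10.8%) and 7.33% of weaker ones, and in 7.53% of all. Outside promoters the TATA box differed the other way, by -1.87 points, and CCAAT did at a signal threshold of 1500, by -0.223 points. The strong windows as a whole held more A and T, and the part of this in these shares was not tested.

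Core promoter motifs and the core of a boundary factor made up the 4 that were less frequent in strong peaks. The letters CGATAG, the core bound by the boundary factor BEAF-32, was in 12 strong peaks (2.54%) and 7.55% of weaker ones, beside 7.27% of all. TATCGATA, bound by Dref, which drives replication and growth genes, was in 4 strong peaks (0.846%) and 3.08% of weaker ones, beside 2.95% of all, and it contains CGATA, so it shares letters with CGATAG. The letters TCAGTT, an initiator core, was in 19 strong peaks (4.02%) and 6.75% of weaker ones, beside 6.59% of all, but its difference was 0.687 points at a threshold of 2000. The letters CATCNCTA, the core promoter element known as Ohler motif 7, was in 3 strong peaks (0.634%) and 2.69% of weaker ones, beside 2.58% of all. The core of Ohler motif 1, GGTCACAC, bound by M1BP, was in 0 of 473 strong peaks, which allows a share of up to 0.634% by the limit of 3 counts (exact 95% upper bound 0.777%), and in 1.61% of weaker ones, beside 1.52% of all. Among promoter peaks the differences were -10.5 points for CGATAG, -4.77 for TATCGATA and -3.91 for Ohler motif 7, and outside promoters they were -0.559, -0.368 and -0.712 points in the same order. The initiator core differed by -1.13 points among promoter peaks and by -5.37 points outside them. In windows of 100 bp to each side, CGATAG was in 8.03% of strong and 12.8% of weaker peaks, and TATCGATA in 2.75% and 5.49%. Ohler motif 7 was in 3.59% and 5.06% there, and the initiator core in 9.30% and 12.8%. Strong promoter summits lay further upstream of the TSS (median -129 against -79 bp), and the part of this in these shares was not tested. The smallest adjusted exact permutation p over the 40 motifs was 0.345, from a p of 0.25. The other 31 motifs differed by -1.70 to 1.59 points, the lowest being the E-box CAGCTG and the highest the Sox motif. A match is a run of letters and not a site of binding.

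Strong peaks lay at promoters more often than weaker ones. A promoter peak has its summit within 500 bp of the TSS of a protein coding gene, and 328 strong peaks (69.3%) and 48.2% of weaker peaks were of this kind, beside 49.4% of all optimal peaks. In the replicates the strongest peaks had promoter shares of 68.9%, 69.1% and 69.1% and the next ones 48.1%, 49.0% and 47.1%, without overlap. The difference was 21.0 ± 0.95 points (SD, n = 3, exact sign-flip permutation p = 0.25, adjusted 0.286). With promoters taken as 200 bp the difference of the optimal list was 11.6 points, with 48.4% of strong and 36.9% of weaker peaks. The share showed no steady course within the members, with 65.0% at signal values of 1000 to 1250, 75.3% at 1250 to 1500, 67.4% at 1500 to 2000, 76.2% at 2000 to 3000 and 68.1% above 3000, whose exact intervals overlap.

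Introns outside promoters held 111 strong peaks (23.5%) and 35.7% of weaker ones, beside 35% of all optimal peaks. Intergenic sequence held 30 strong peaks (6.34%) and 14.4% of weaker ones, beside 13.9% of all. Only 66 strong peaks (14.0%) lay over 2000 bp from a protein coding TSS, against 32.0% of weaker peaks and 31% of all, and the replicates differed by -17.8 ± 0.336 points (SD, n = 3, exact permutation p = 0.25, adjusted 0.286). Outside promoters, a 5′ UTR held 1 strong peak, near Fbl6, beside 0.576% of all optimal peaks, and 3′ UTRs held 2, of CG7872 and of Cals, beside 0.947% of all. In coding exons outside promoters there was 1 strong peak (0.211%), in otp, against 0.191% of weaker peaks and 0.192% of all. The X chromosome held 86 strong peaks (18.2%) and 19.8% of weaker ones, beside 19.7% of all. Of the optimal peaks on arm 2L 7.05% were strong, and on the other large arms 5.01% to 5.72%, while the fourth chromosome held 1 strong peak among 38.

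**Figure D3:**
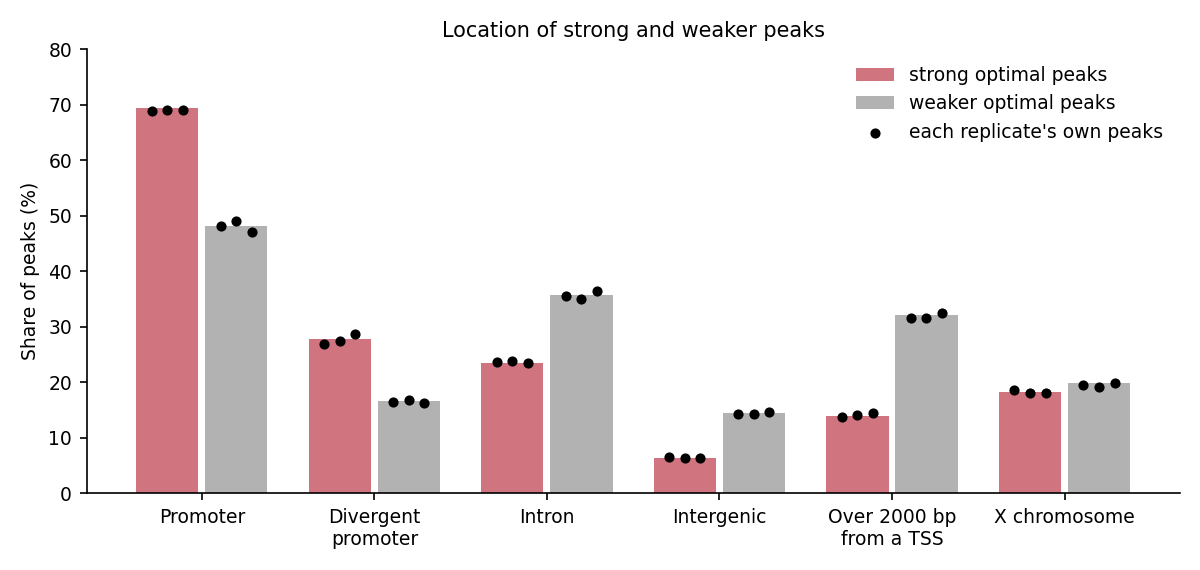
Share of peaks (%) by location for strong (red) and weaker (grey) optimal peaks as bars, with each replicate's own strongest 473 and next peaks as points. Promoter shares are 69.3% in strong and 48.2% in weaker peaks, and shares over 2000 bp from a TSS are 14.0% in strong and 32.0% in weaker peaks.

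Promoters shared by a pair of genes that point away from each other were common among strong peaks. Such divergent promoters held 131 strong peaks (27.7%) and 16.6% of weaker ones, beside 17.3% of all optimal peaks. In the replicates the strongest peaks had shares of 26.8%, 27.5% and 28.8% and the next ones 16.4%, 16.7% and 16.2%, a difference of 11.2 ± 1.11 points (SD, n = 3, exact permutation p = 0.25, adjusted 0.286). These shares are of all peaks, so they include the difference in promoter share. Of promoter peaks alone, divergent promoters held 131 of 328 strong and 1308 of 3792 weaker ones. The share did not rise toward the strongest peaks, with 9 of the 40 strongest and 27 of the 100 strongest at such promoters. At signal values of 3000 or more it was 21.3%. Of the 14 strongest peaks 6 lie at such promoters, those of CG8320 and Chro with the summit inside the gene. They are CG8320 with Pex11ab, a peroxisome protein, at 5460, Tcs5, a tRNA modification factor, with CHMP2B, part of the membrane-cutting ESCRT machinery, at 5020, and Art3, an arginine methyltransferase, with mRpS10 at 4712. CenG1A, an Arf GTPase-activating protein, with mRpS23 had 4570, Chro, an interband chromatin protein, with Ssl1, a subunit of the transcription factor TFIIH, had 4519, and Shc, an adaptor of receptor tyrosine kinases, with Atat, which acetylates tubulin, had 4409.

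Within promoters, strong summits lay further upstream. Of the promoter summits 278 strong ones (84.8%) and 81.8% of weaker ones were upstream of their nearest TSS, beside 82.1% of all. The median position was -129 bp for strong summits (quartiles -205 and -75.8 bp, negative being upstream) and -79 bp for weaker ones (quartiles -165 and -22 bp). In the replicates the medians were -129 ± 2.52 bp in the strongest peaks and -80.7 ± 5.03 bp in the next ones (SD, n = 3). Within 50 bp of the TSS there were 37 strong summits (11.3%) and 25.9% of the weaker ones, beside 24.8% of all promoter peaks.

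**Figure D4:**
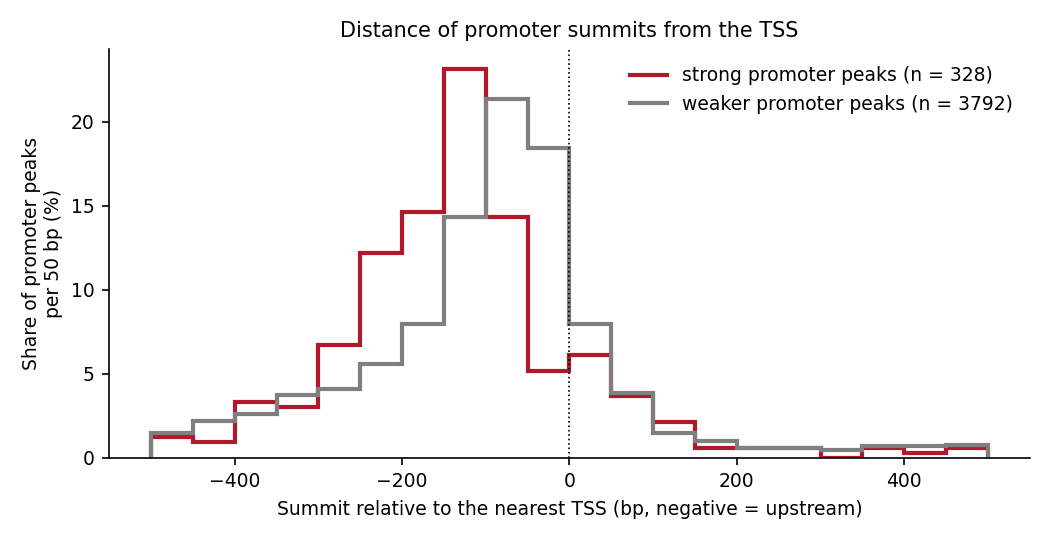
Share of promoter peaks (%) per 50 bp by the position of the summit relative to the nearest protein coding TSS (bp, negative upstream) for 328 strong (red) and 3792 weaker (grey) peaks. The median is -129 bp for strong and -79 bp for weaker summits, and 11.3% of strong and 25.9% of weaker summits lie within 50 bp of the TSS.

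Signal values among the members ran from 1001 to 9422 with a median of 1391 (quartiles 1126 and 1922), and those of the weaker peaks from 123.3 to 995.9 with a median of 226. The strong peaks are 5.67% of the optimal peaks and hold 26.2% of their summed signal. Signal values of 2000 or more were reached by 110, of 3000 or more by 47 and of 5000 or more by 8. The widths were close, with a median of 459 bp in strong and 450 bp in weaker peaks. Just inside the threshold lie peaks near Faf2 (1003), Raf (1001) and sls (1001), and just outside it those near Charon (995.9), Baldspot (995.7) and ERp60 (990.4), so the boundary falls in a continuous range.

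The strongest peak, at 9422, lies in an intron of ush, a cofactor of GATA factors, and the nearest TSS, at -1393 bp, is that of cbt, a zinc finger gene. It is followed by the promoter of CG14100 (7987), an intron of CG11050 (7218) and the promoter of Ugalt, a transporter of UDP-galactose into the Golgi (7175). Further strong peaks were at the promoters of mRpL41, of the large mitochondrial ribosomal subunit (5385), and PNPase, which degrades RNA in mitochondria (4755). The promoters of eIF6, a factor of ribosome assembly (4326), larp, an RNA-binding protein (4278), ph-p, a Polycomb group protein (3994), and Atf3, a bZIP factor (3977), were among the next, and so was an intron of Trl, which encodes the GAGA factor (3916). The peak in an intron of Lk6, a kinase that phosphorylates the cap-binding protein eIF4E, had 4981. Promoters held 28 of the 40 strongest peaks, introns 10, and 2 were intergenic.

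Those 2 intergenic peaks, with 5019 and 3425, lie 995 bp apart on X, 5055 and 6050 bp downstream of the TSS of CG4004, and each is within 500 bp of the start of the long noncoding RNA lncRNA:CR44619. Among the other members over 2000 bp from a TSS are peaks in introns of Tlk, a chromatin kinase (3114), osa, a subunit of the Brahma complex (2832), trx, the Trithorax methyltransferase (1794), and Hr3, a nuclear receptor (1864). Upstream of tara (2762) and chinmo (2693), a BTB zinc finger factor of neuronal temporal identity, the summits lie at -3164 and -12445 bp from the TSS. Of the 145 strong peaks outside promoters of protein coding genes, 12 lie within 500 bp of the start of an RNA gene. With the TSSs of all annotated genes, the promoter share was 71.9% in strong and 50.2% in weaker peaks. With protein coding TSSs alone it was 69.3% and 48.2%, so weaker peaks gained such starts too.

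The median distance from a strong summit to the nearest other strong summit was 53053 bp. Another strong summit lay within 5000 bp of 71 strong summits and within 1000 bp of 14, in pairs at Trl, elav, prage, ph-p, Syx4, CG4004 and NFAT. At prage and at ph-p the 2 summits belong to 1 called region. The spacing to be expected from the number of strong summits was not computed, so these counts show neither clustering nor dispersal. Within the gene and 2000 bp around it, CHES-1-like and Raf had 4 strong summits each, and CG42507, Trl, whose span overlaps that of CG42507, and prage had 3 each. Another optimal summit of any strength lay within 1000 bp of 134 strong (28.3%) and 29.0% of weaker summits, beside 28.9% of all. In the replicates' own lists that share was 33.2% ± 3.40 in the strongest and 30.1% ± 0.876 in the next peaks (SD, n = 3), the other way round, so no direction is given for it.

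Of 13968 protein coding genes, 477 (3.41%) had a strong summit within 500 bp of a TSS, which is 10% of the 4747 genes with any optimal summit there. A summit between a pair of genes counts for both. Gene lists were compared with these shares by count alone. Among metabolic genes, 3 of 13 glycolysis genes had one (Gapdh2 at 2899, Eno at 1718 and Hex-A at 1330), of 11 with any optimal summit, and 4 of 91 genes of the respiratory chain and ATP synthase did (ND-ASHI at 1654 the highest). Of the mitochondrial ribosomal proteins 7 of 75 had one, led by mRpL41 (5385), mRpS10 (4712), mRpS23 (4570) and mRpL23 (3432), and of the cytoplasmic ones 4 of 93, led by RpL34b (1547) and RpS20 (1305). Translation factors had 5 of 56, led by eIF6 and larp, and the aminoacyl-tRNA synthetases 1 of 33, SerRS (1721). Of 34 vacuolar ATPase genes Vha100-2 (1292) had one.

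Among chromatin and signalling genes, the lists given here ran from 3.57% to 11.5%, beside 3.41% of all genes, and were not tested. Counted over genes with any optimal promoter summit, the shares of these lists ran from 6.06% to 33.3%. For all such genes it was 10%. The Hippo pathway, a signalling list given further below, had 0 of 18. Of 26 insulator and architectural proteins 3 had a strong promoter summit, Chro (4519), Cp190, a cofactor of several insulator proteins (1420), and Trl (1300), while genes such as BEAF-32 and CTCF had none. Of 32 Polycomb and Trithorax genes 3 did, ph-p, brm, the ATPase of the Brahma complex (1420), and Trl, which is in both lists. In insulin and TOR signalling it was 4 of 35, with Sesn (2323), REPTOR (2133), sgg (1743) and Pi3K21B (1123), in the receptor tyrosine kinase pathway Shc and spi, an EGF receptor ligand (1716), of 28, in autophagy Atg17 (1273) and Atg2 (1076) of 20, and in vesicle traffic 7 of 94, led by Vps33B (2245) and alphaCOP (1544). The peak of brm also lies at the promoter of Arl1 and counts in both lists. Of 56 general transcription factor and Mediator genes 2 had one, MED30 (2030) and MED27 (1671), and of 24 nuclear pore genes Nup37 did, through the peak it shares with RpS27 (1089). Of 26 GATA factor, cofactor and zinc finger genes 3 did, cbt through a second peak (2097), sbb (1053) and Eip75B (1003), a nuclear receptor of the ecdysone response.

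Of the other lists, 7 held no gene with a strong promoter summit, against 3.41% of all genes. None of 123 cuticle protein genes had a strong promoter summit, which allows a share of up to 2.44%, and none of 180 odorant and gustatory receptor genes (up to 1.67%). Few of these had an optimal summit of any strength at the promoter, 2 cuticle and 3 receptor genes, and likewise 3 segmentation genes and 1 Hox gene. There was none either among 28 segmentation genes, 8 Hox genes, 20 genes of synaptic release, 18 of the Hippo pathway and 35 of the spliceosome, lists so short that 0 allows shares of 8.57% to 37.5%. At that share, lists of such length would hold about 1 gene or fewer. Of 26 sarcomere genes sls had one (1001), or 3.85%. Of 48 proteasome genes Rpn5 (1104), of 44 cell cycle genes Dp (1387) and of 25 heat shock genes Hsp27 (1426) had one. CG2120 itself (X:8135824 to 8137046) held no strong summit, the nearest lying 6702 bp away near CG17982, and the nearest optimal one of any strength lay 733 bp away, with a signal value of 189.7.

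In the replicates, ranked by each replicate's own signal values, strong peaks were found near their rank in the optimal list. A peak counted as found where a summit lay within 100 bp. Of the 473 strong peaks, replicates 1, 2 and 3 held 471, 473 and 472 anywhere in their lists, and 440, 452 and 432 of them among their own 473 strongest, a mean of 93.3% ± 2.13 (SD, n = 3). In all 3 at once it was 396 (83.7%, exact 95% interval 80.1 to 86.9), in 2 replicates 59, in 1 replicate 18 and in none 0. All 296 strong peaks of signal 1250 or more were among the 473 strongest of every replicate, and the first that was not has rank 332. Of the 100 strongest, 90 were among the 100 strongest of every replicate. The optimal peaks are the first 8340 of a list called on these replicates pooled, so these ranks are no independent check.

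The departures sat near the threshold. The lowest ranks were 599 in replicate 1, near SMC2, 624 in replicate 2, near CG1737, and 729 in replicate 3, near RpS27, whose ranks in replicates 1 and 2 were 368 and 298. Peaks near Act5C and hll likewise had their lowest ranks, 679 and 661, in replicate 3. A peak near bin3 was not found in replicates 1 and 3, whose nearest summits lay 175 and 171 bp away, and one near chn was not found in replicate 1, whose nearest summit lay 123 bp away.

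**Figure D5:**
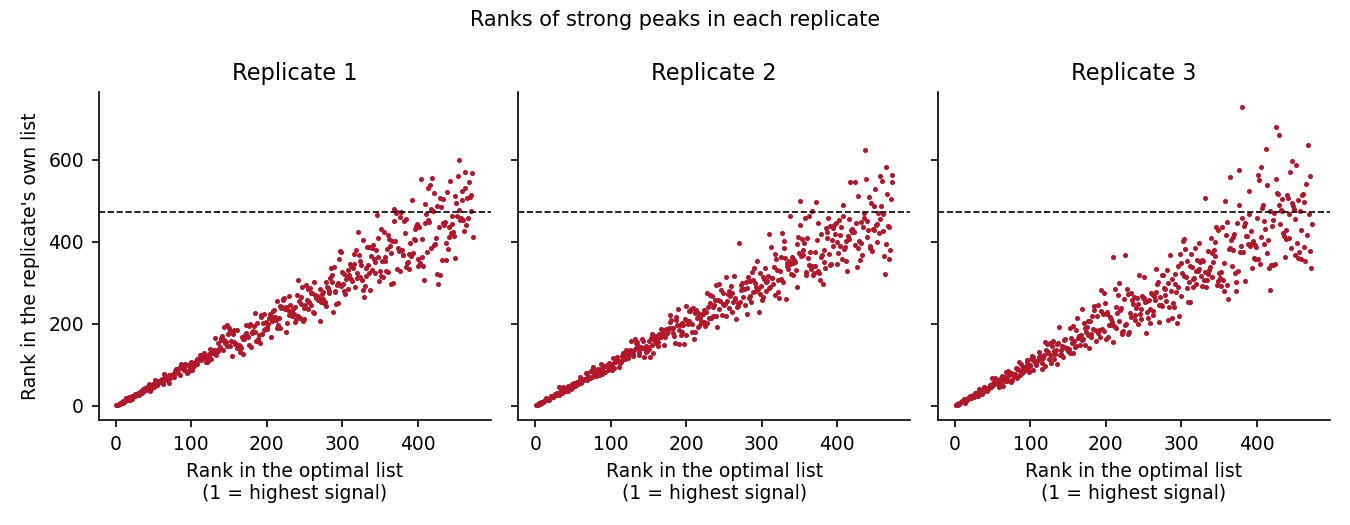
Rank of each strong peak in the list of replicate 1, 2 or 3 (vertical axis) against its rank in the optimal list (horizontal axis), with rank 473 as a dashed line and 1 point per peak found. Points lie close to the diagonal for the strongest peaks and spread toward the threshold, up to rank 729 in replicate 3.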

How the data were processed

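Peak lists (narrowPeak, builds dm6 and dm3) were deposited for each replicate, for all replicates pooled, and as an optimal set chosen by irreproducible discovery rate. The samples' provenance text names 1 control behind every list. Sonication gave fragments of 200 to 800 bp, per the labels. The aligner and peak caller were not given in the sources used here. A peak's signal value was set by the authors and is not scaled between lists, so replicates were compared by rank. The deposited −log10 q value is at its maximum in all 473 strong peaks and in 81.7% of weaker ones, so it was not used for ranking. The strong peaks are also the 473 strongest of the pooled list.

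Genes and 19276 distinct protein coding TSSs came from Ensembl release 115, and sequence from the RefSeq release 6 assembly. Summits were classed as promoter (500 bp), 5' UTR, coding exon, 3' UTR, intron or intergenic, in that order. Each replicate's 473 strongest peaks were compared with its ranks down to 8340 by an exact sign-flip permutation test, two-sided, with Python 3.11.15 and SciPy 1.17.1. Of the steps, location class, TSS distance, motif search and summit matching were tested on simulated peaks. That test did not cover GC content, divergent pairs or the words at the block edges. Alternatives were other signal thresholds, windows, TSS sets and match rules, peaks of all 3 replicates, promoter or other peaks alone, the middle of the peak, dm3 and leaving out each replicate. Named genes are those at the 40 strongest peaks, at the threshold, with the most strong summits, with the lowest replicate ranks and leading each of 27 lists, with CG2120. Distal peaks, divergent pairs and the words at the block edges were chosen after their values were seen. The members, the gene lists and the motifs were chosen with earlier results of these data known.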

Additional observations from a re-analysis of the deposited data

How the results depend on the processing

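No paired analysis was possible because the samples form 1 group, which leaves no 2 groups to pair; strong and next peaks were compared within each replicate. The 8 differences between strong and weaker peaks were recomputed under 8 to 12 alternatives each. The coding exon difference rests on 1 strong peak and changed sign from 0.0207 points to -0.0555 at a threshold of 800, -0.197 at 1500 and -0.194 at 2000. The share with a neighbour, -0.639 points, became 0.288 at 800. The other 6 kept their direction, with -0.117 to -2.41 points for the X chromosome, 11.6 to 23.6 for promoters and -1.49 to -6.12 for GC content. Of single motifs, CCAAT reversed to -0.223 points at 1500, the initiator to 0.687 at 2000 and the TATA box to -1.87 outside promoters. The count of motifs that differ by 2 points, 8, was 4 with windows of 25 bp and 4 outside promoters. The share of strong peaks among the strongest of all 3 replicates, 83.7%, was 81.2% with summits within 50 bp and 91.8% at 2000, and 86.3% to 89.9% when a replicate was left out, which asks for 2 replicates in place of 3. For the inward words, alternatives chosen after seeing the data gave differences of 20.8 to 37.0 points, against 21.8. Unknown depth and 3 replicates limit the precision.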
